A study of Mus musculus with 43 samples.

Results

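Dendritic cells (DC) were compared with alveolar macrophages (AM) sorted from the lungs of newborn mice kept in air (normoxia). The members are 12 of the 43 libraries in the series, 6 of DC and 6 of AM, chosen by the cell population and oxygen condition in the sample labels. The whole series measured RNA by sequencing in 4 sorted lung mononuclear phagocyte populations of C57BL/6 pups, in hyperoxia and in normoxia, and asked what early oxygen exposure does to these cells. Per the labels, DC were gated as high for MHC class II and for CD11c, and AM as high for Siglec-F and for CD11c. Ly6Chi cells (high Ly6C, low CD11c) and Ly6Clo cells (low Ly6C, high CD11c) are used here only as a backdrop. The hyperoxic groups, 5 DC and 5 AM libraries, came from pups given a fraction of inspired oxygen of 0.9 for 1.5 days, against pups in air for the same time. Litters were identified within 6 hours of birth and pups were then mixed and randomised. All groups share the strain, and the labels name no allele or drug. Each normoxic group holds 2 libraries from each of 3 litters (93, 100 and 108), and the hyperoxic groups hold 2, 1 and 2. The labels do not tie a library to a pup or say whether animals were pooled, so p-values measure the spread between these libraries.

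DC and AM are both mononuclear phagocytes, with different work. Conventional DC develop under the growth factor Flt3 ligand, take up antigen, load it on MHC class II and carry it to lymph nodes through the chemokine receptor Ccr7, where they prime T cells. AM settle in the air spaces around birth, when granulocyte-macrophage colony-stimulating factor (GM-CSF) from the epithelium switches on the nuclear receptor gene Pparg, and they then clear surfactant lipid and debris. The days after birth are thus the time in which the AM programme is being laid down.

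Library totals ran from 1152853 to 2403861 counts in DC and from 570769 to 1701878 counts in AM. AM replicate 3, of litter 100, was the smallest library. Genes with at least 1 count numbered 15774 to 16369 in DC libraries and 13599 to 15080 in AM libraries. The group means were 16095 ± 214 in DC and 14525 ± 547 in AM (SD, n = 6 each), a difference of 1571 (exact permutation test, two-sided p = 0.00216, the smallest that 6 against 6 libraries allow). The total differed as well (exact permutation p = 0.0346). Totals crossed between the groups while the genes detected did not. DC replicate 3 had 1152853 counts and 16024 genes, against 1701878 counts and 14985 genes in AM replicate 1. The part of depth in the difference of genes detected was not tested. No gene had more than 4012 counts in a library or more than 1.73 counts per exonic base, so differences of the most abundant transcripts may be compressed. Levels are counts per 1000000 (CPM) on library sizes adjusted by the TMM method. Triplets of levels are the lowest, median and highest library of a group, fold changes are log2 DC minus AM with their standard error (SE), and calls needed an adjusted p below 0.05 from edgeR's quasi-likelihood test with litter as a block. These libraries hold bulk RNA, in which fewer cells of a type and less RNA per cell cannot be told apart.

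Of 10863 genes tested, 5559 (51.2%) were called. DC were higher in 2955 genes (27.2%) and lower in 2604 (24%), and the median log2 fold change of all genes tested was 0.04. That balance turned under upper-quartile scaling (2621 higher and 2940 lower) and with a minimum count of 30 (2264 higher and 2416 lower). Steep differences were more often on the DC side, with 666 called genes at least 4-fold higher in DC and 302 at least 4-fold lower, and 237 against 42 at 16-fold or more. Of the called genes 5401 (97.2%) had the same sign in all 3 litters. The 6 DC and the 6 AM libraries did not overlap for 2593 genes (23.9%), of which 1475 (13.6%) were higher and 1118 (10.3%) lower in DC. Each gene list is read against these shares of all genes tested.

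The sort labels matched their marker genes. H2-Ab1, a beta chain of MHC class II, had 868, 1157 and 1602 CPM in DC, against 15.9, 173 and 321 CPM in AM (log2 fold change 2.69 ± 0.60, adjusted p = 0.00553). Siglecf, the gene of the AM sort marker, had 4.19, 7.06 and 24.6 CPM in DC, against 73.5, 138 and 161 CPM in AM (−3.83 ± 0.32, adjusted p = 3.13e-08). Neither marker overlapped between the groups, and because their proteins set the gates, these differences check the labels and are no finding. The call of H2-Ab1 ended without litter 108 (adjusted p = 0.0659), with its fold change at 2.83. It also ended within litter 93 (adjusted p = 0.310, fold change 2.72) and within litter 100 (adjusted p = 0.0708, fold change 2.94). Itgax, which encodes CD11c, was gated high in both sorts and differed little, at 130.4, 158 and 185 CPM in DC, against 164, 203 and 268 CPM in AM (−0.40 ± 0.14, adjusted p = 0.0208). Its call ended without any of DC replicates 5 and 6 or AM replicate 6, without litter 108 and without the filter on low counts.

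**Figure D1:**
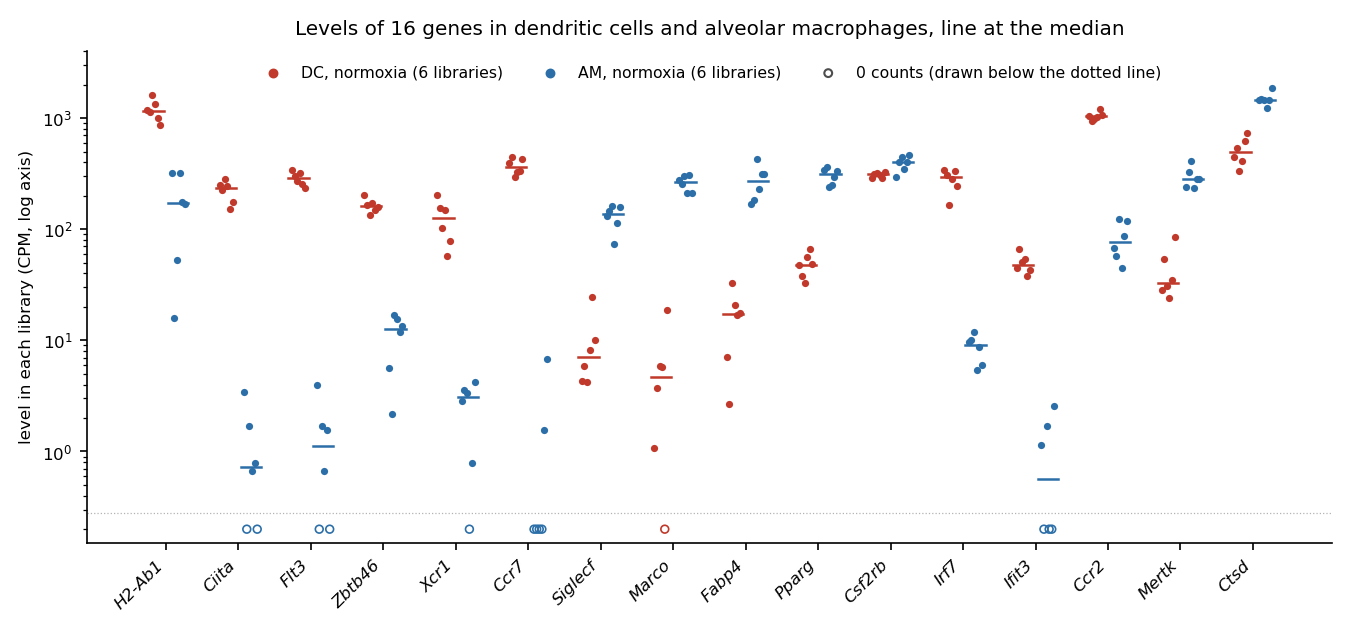
Level of 16 genes in each normoxic library, in CPM on a log axis, with DC (red, left) beside AM (blue, right) and a line at the median. The DC and AM points are separated for 15 of the genes shown and overlap for Csf2rb, and Ciita, Flt3, Xcr1, Ccr7 and Ifit3 have AM libraries with 0 counts.

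Markers of other cells that a lung sort could carry were summed for each library. B cell markers, 11 genes, summed to 784, 1455 and 1719 CPM in DC, against 23.6, 101 and 229.7 CPM in AM, without overlap. Of the 7 tested, 7 were higher in DC, led by the immunoglobulin heavy chain gene Ighm (318, 507 and 569 CPM in DC, against 2.70, 12.5 and 36.2 CPM in AM, 4.96 ± 0.34) and the B cell receptor genes Cd79b (2.62 ± 0.28), Vpreb3 (3.95 ± 0.49) and Cd79a (62.04, 141 and 172 CPM in DC, against 0, 6.51 and 21.2 CPM in AM, 3.98 ± 0.45). The lineage gene Pax5 had 51 counts over the DC libraries and 1 over the AM libraries. B cell transcripts were thus present in every DC library and were less abundant in AM.

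Interstitial macrophage markers summed to 1707, 2010.3 and 2585 CPM in DC, against 514, 658 and 1022 CPM in AM, also without overlap. The complement genes led them, C1qa at 169, 309 and 359.6 CPM in DC, against 1.44, 2.70 and 9.44 CPM in AM (6.26 ± 0.27, adjusted p = 2.49e-12), C1qc at 5.76 ± 0.42 and C1qb at 4.90 ± 0.45, with the chemokine gene Pf4 at 2.69 ± 0.42. Folr2, a folate receptor of tissue macrophages, had 281 counts over the DC libraries and 0 over the AM libraries, with 5.43, 102, 5.87, 8.90, 4.74 and 19.7 CPM in DC replicates 1 to 6, by far the highest in replicate 2. Cd163l1 was at 0 in all DC libraries. Of 9 markers tested 5 were higher in DC, none was lower, and Lyve1, Cbr2, Gas6 and Selenop were not called.

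Monocyte markers were higher in DC as well. Classical markers summed to 1519, 1673 and 2076 CPM in DC, against 1023, 1164 and 1313 CPM in AM, with 7 of 11 higher, among them F13a1 (3.59 ± 0.31), Plac8 (3.11 ± 0.27), Ms4a4c (5.33 ± 0.44) and S100a4 (1.61 ± 0.19), while Mgst1 (−1.76 ± 0.15) and fibronectin, Fn1 (−0.70 ± 0.16), were lower. Ly6c2, the gene behind the Ly6C stain, had 94.5, 145 and 174 CPM in DC, against 8.09, 17.4 and 40.8 CPM in AM (2.58 ± 0.32, adjusted p = 6.75e-06). Non-classical markers summed to 578, 899.9 and 1028 CPM in DC, against 125, 154 and 166 CPM in AM, with 6 of 8 higher, including Eno3 (4.44 ± 0.27), Adgre4 (5.02 ± 0.34), Cd300e (4.18 ± 0.39) and Nr4a1, an orphan nuclear receptor, at 45.8, 63.03 and 127 CPM in DC, against 7.64, 16.3 and 23.1 CPM in AM (2.26 ± 0.21). Both sums separated the groups.

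Endothelial markers lay the other way. They summed to 154, 314 and 486 CPM in DC, against 335, 723 and 1434 CPM in AM, and the sums overlapped. Of those tested 9 of 10 were lower in DC, such as Vwf (−1.54 ± 0.21), Cdh5 (−2.20 ± 0.32), Egfl7 (−1.46 ± 0.31) and Kdr (−1.43 ± 0.31). Only 1 of the 10 was lower in DC without overlap, beside 10.3% of all genes tested. Pecam1 alone of those tested was not called, at 24.98, 37.1 and 74.4 CPM in DC, against 16.99, 35.04 and 87.6 CPM in AM (0.11 ± 0.32). Epithelial markers summed to 369, 1243 and 2681 CPM in DC, against 522, 2286 and 3366 CPM in AM and overlapped widely: 3 of 14 were lower in DC, a share near that of all genes (Cdh1, −1.58 ± 0.18, Hopx, −1.07 ± 0.16, and Slc34a2, −1.80 ± 0.59), and Epcam, which DC can express, was higher (1.14 ± 0.29). The surfactant gene Sftpc was present in both groups, at 88.3, 529 and 1000.2 CPM in DC, against 219, 899.97 and 1760.1 CPM in AM, and was not called (−0.70 ± 0.44, adjusted p = 0.221), although it was called lower in DC with limma voom (adjusted p = 0.0367), without the filter on low counts (3.85e-08), without litter 93 (0.00653) and within litter 108 (0.000410).

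Few lymphocyte and granulocyte genes could be tested. Of 13 T and NK cell markers 2 passed the filter and both were higher in DC, Il7r (0.71 ± 0.19) and Lck (2.33 ± 0.73), and Cd3e, a T cell receptor subunit, reached 30.3 CPM in DC replicate 2 with a median of 0 in both groups. Of 12 neutrophil markers 5 were tested, with the collagenase Mmp8 (3.84 ± 0.29) and Csf3r (0.93 ± 0.24) higher in DC and the calprotectin gene S100a8, at 41.2, 67.8 and 177 CPM in DC, against 159, 180.3 and 389 CPM in AM (−1.31 ± 0.23), lower. Mesenchymal, erythroid and eosinophil, mast cell or platelet markers had 0 called of 5, 1 and 2 tested. Among them Col1a1 had at most 4.42 CPM in DC and 4.04 CPM in AM, Hbb-bs had 0, 1.998 and 99.8 CPM in DC, against 0, 33.6 and 129 CPM in AM, and Prg2 reached 4.19 CPM in DC and stood at 0 in AM. The part of these other cells in the results on other genes was not tested.

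**Figure D2:**
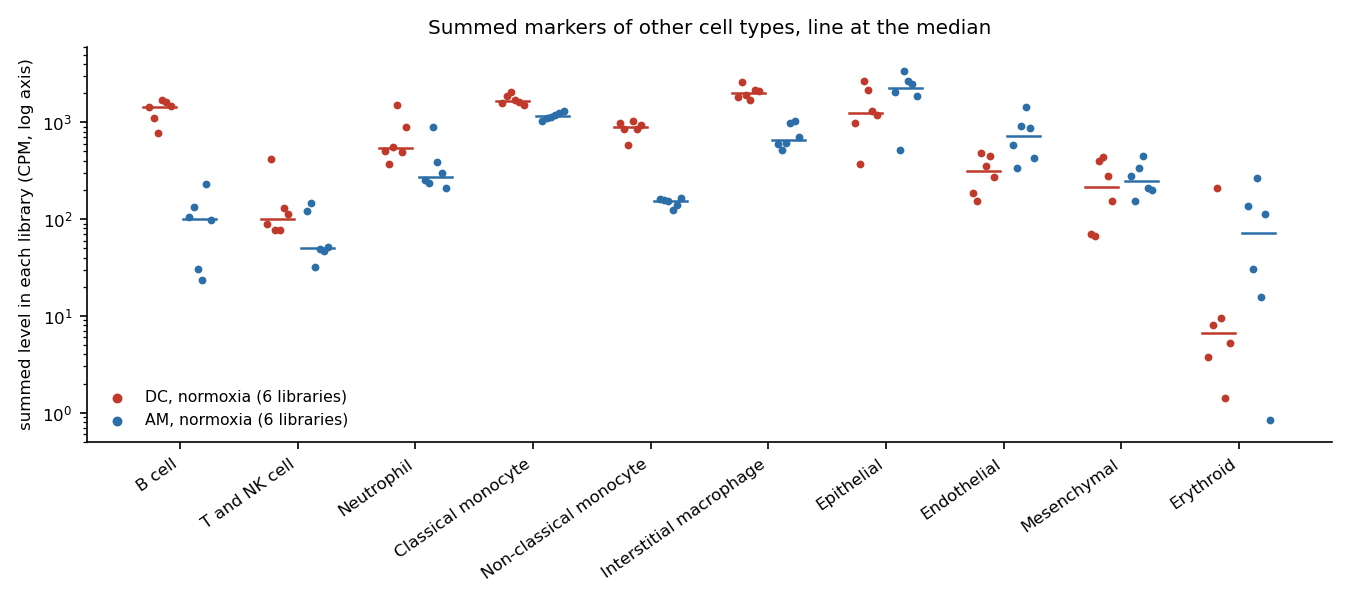
Summed level of the markers of 10 other cell types in each normoxic library, in CPM on a log axis, DC in red on the left and AM in blue on the right, with a line at the median. The B cell, non-classical monocyte, classical monocyte and interstitial macrophage sums do not overlap between the groups. The T and NK cell, neutrophil, epithelial, endothelial, mesenchymal and erythroid sums do.

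MHC class II genes were higher in DC throughout. Of 11 genes, 10 were tested, all 10 were called higher in DC, and none overlapped between the groups (median log2 fold change 2.94, against 0.04 for all genes tested). The list holds H2-Ab1 and other chain genes of the protein that gated the DC, so this count is in part a check of the sort. Class II chains present peptides to CD4 T cells, the invariant chain Cd74 guards their groove, and H2-DM and H2-O control peptide loading. The chain genes H2-Aa, at 795, 1071 and 1452 CPM in DC, against 10.8, 80.02 and 254 CPM in AM (3.33 ± 0.54, adjusted p = 0.000842), and H2-Eb1, at 714, 974 and 1312 CPM in DC, against 2.88, 50.96 and 159 CPM in AM (3.79 ± 0.62, adjusted p = 0.000938), were separated by the lowest DC library and the highest AM library. The loading genes H2-DMb1 (3.08 ± 0.19), H2-DMb2 (2.66 ± 0.21) and H2-Ob (5.93 ± 0.43) followed. Within litter 93 the calls of H2-Aa and H2-Eb1 ended (adjusted p = 0.181 for each), with fold changes of 3.54 and 3.84. H2-Eb2 did not pass the filter. It had 78 counts over the DC libraries and 0 over the AM libraries, at least 18.01-fold higher when 3 counts are allowed over the group.

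The widest class II difference was in the regulator. Ciita, the transactivator that class II transcription depends on, had 153, 237 and 282 CPM in DC, against 0, 0.730 and 3.40 CPM in AM (7.48 ± 0.32, adjusted p = 2.31e-12), and the litter differences were 6.84 in litter 93, 6.96 in litter 100 and 6.95 in litter 108 on the mean log2 CPM scale. In AM replicates 1 to 6 H2-Ab1 stood at 321, 15.9, 52.5, 318, 177 and 169.9 CPM, H2-Eb1 at 124, 2.88, 22.002, 159, 63.7 and 38.2 CPM and Cd74 at 396, 64.9, 71.1, 534, 333 and 218 CPM, while Ciita stood at 3.40, 0, 1.69, 0.674, 0.787 and 0 CPM. The chain levels thus ranged widely among AM libraries, lowest in replicate 2, and Ciita was at too few counts there for its spread to be resolved. B cell markers were higher in DC too, and summed to 106, 132, 30.5, 23.6, 229.7 and 96.8 CPM in AM replicates 1 to 6. The part of B cell RNA in the DC minus AM difference was not tested. Correcting counts for a limit on abundant transcripts gave H2-Ab1 a log2 fold change of 2.99.

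Class II promoters share a Y box, which binds the factor NF-Y. In RefSeq windows from 250 bases before to 50 bases after the start (build GRCm38.p6), the letters CTGATTGG on either strand were found in 4 of the 8 class II genes that have a window (50%), namely H2-Aa, H2-Eb1, H2-Eb2 and H2-Oa, and in 4.70% of 27025 genes. The windows of the chain genes with a match are shown with the match in capitals, 51 bases before the start in H2-Aa (chr17:34287774-34288073, minus strand) and 62 bases before it in H2-Eb1 (chr17:34305617-34305916, plus strand).
H2-Aa: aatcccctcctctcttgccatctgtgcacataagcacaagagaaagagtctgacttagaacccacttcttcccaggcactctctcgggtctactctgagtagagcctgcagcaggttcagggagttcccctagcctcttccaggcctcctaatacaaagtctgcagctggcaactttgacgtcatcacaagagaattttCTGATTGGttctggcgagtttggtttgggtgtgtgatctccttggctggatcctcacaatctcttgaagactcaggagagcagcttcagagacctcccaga
H2-Eb1: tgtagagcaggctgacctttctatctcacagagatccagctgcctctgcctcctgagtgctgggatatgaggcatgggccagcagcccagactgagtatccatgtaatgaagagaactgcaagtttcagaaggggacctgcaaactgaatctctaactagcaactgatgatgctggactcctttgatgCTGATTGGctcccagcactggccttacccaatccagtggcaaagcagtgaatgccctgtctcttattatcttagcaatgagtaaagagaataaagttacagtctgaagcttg
A match is a description of these letters only.

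DC development genes were mostly higher in DC, 13 of 17, with none called lower and a median of 1.85. Flt3, the receptor that drives DC development, had 236, 286 and 340.5 CPM in DC, against 0, 1.12 and 3.96 CPM in AM (7.59 ± 0.31, adjusted p = 1.85e-12). Zbtb46, a transcription factor that marks conventional DC, had 134, 162 and 202 CPM in DC, against 2.16, 12.7 and 16.9 CPM in AM (3.99 ± 0.28, adjusted p = 1.57e-09). The groups did not overlap for either gene.

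The transcription factors that divide the DC lineage were on the same side. Irf8, needed for type 1 conventional DC, had 687, 932 and 1090.4 CPM in DC, against 84.2, 115 and 152 CPM in AM (2.96 ± 0.13, adjusted p = 3.03e-12), and its partner Batf3 was at 4.09 ± 0.25. Irf4, tied to type 2 conventional DC, had 24.8, 41.6 and 47.9 CPM in DC, against 0, 1.56 and 6.49 CPM in AM (4.15 ± 0.47, adjusted p = 7.07e-07). Both pairs of groups were fully separated. The 4 genes that did not pass the test were Zeb2, Nfil3, Ikzf1 and Spi1, which encodes PU.1 and stood at 532 ± 23.5 CPM in DC and 472 ± 122 CPM in AM (SD, n = 6 each). The letters GAGGAAGT, a PU.1-like motif, were in 0 of 14 DC development genes and 0 of 18 AM markers that have a promoter window, and in 3.69% of all genes.

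Both conventional DC subsets were represented. Of 12 type 1 markers 11 were higher in DC without overlap (median 4.77), and of 8 tested type 2 markers 5 were higher and 2 lower (median 3.73). Xcr1, the receptor for a chemokine of CD8 T cells, had 56.9, 125 and 205 CPM in DC, against 0, 3.11 and 4.25 CPM in AM (5.69 ± 0.35, adjusted p = 2.56e-10). Clec9a, a receptor for dead cells, had 138, 286 and 343 CPM in DC, against 3.96, 8.90 and 23.6 CPM in AM (4.63 ± 0.31, adjusted p = 3.54e-09). Itgae, which encodes CD103, had 150.2, 178 and 246 CPM in DC, against 0.721, 3.11 and 9.34 CPM in AM (5.56 ± 0.30, adjusted p = 5.43e-11). No AM library reached the lowest DC library in these 3 genes. The double-stranded RNA sensor Tlr3 (3.95 ± 0.23) and Gcsam (7.69 ± 0.43) were called as well, and Cd24a, a broad surface marker, was not (324 ± 54.5 CPM in DC and 316 ± 69.9 CPM in AM, SD, n = 6 each).

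The type 2 markers Mgl2 and Cd209a were among the 10 genes with the steepest rise in DC over AM. Mgl2, a galactose-binding lectin, had 132, 202 and 268 CPM in DC, against 0 CPM in every AM library, so with 3 counts allowed over the AM group it was at least 516-fold higher in DC. Cd209a, a homologue of human DC-SIGN, had 232, 327 and 390.02 CPM in DC, against 0, 0 and 2.55 CPM in AM, from 3532 counts in DC and 3 in AM, a ratio of 815 (95% interval 279 to 3956) in CPM. These intervals and floors cover counting error only. The cytokine gene Ltb (4.03 ± 0.38) and Tnip3 (4.96 ± 0.45) were also higher. The members on the other side were Sirpa, an inhibitory receptor that macrophages carry too (229, 359 and 508 CPM in DC, against 662, 718 and 855 CPM in AM, −1.09 ± 0.15), and the lectin Clec4b1 (−1.63 ± 0.22).

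Plasmacytoid DC markers were mixed. Of 9 genes 6 were tested, with 4 higher and 2 lower in DC. Siglech, a receptor of plasmacytoid DC, had 43.1, 59.7 and 118 CPM in DC, against 0, 0.393 and 15.3 CPM in AM (4.48 ± 0.69, adjusted p = 0.000165), and the highest AM value came from replicate 6. Ly6d (3.62 ± 0.57), Spib (3.14 ± 0.62) and Lair1 (0.93 ± 0.14) were higher, and Ly6d and Spib are B cell genes as well. Runx2 (−1.76 ± 0.22) and Cox6a2 (−1.49 ± 0.35) were lower. The list summed to 447, 498 and 621 CPM in DC and to 177, 215 and 249 CPM in AM. In normoxic Ly6Clo libraries it summed to 305, 536 and 583 CPM, overlapping DC. Markers of both conventional kinds were thus in the DC libraries, while the plasmacytoid list does not single out such cells there. The share of each kind cannot be read from bulk RNA.

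Genes of DC maturation and migration were higher in DC, 17 of 20 without overlap (median 2.83). Ccr7, which guides DC to lymph nodes, had 293, 364 and 447 CPM in DC, against 0, 0 and 6.80 CPM in AM (8.08 ± 0.40, adjusted p = 1.89e-10). Fscn1, the actin bundler of dendrites, had 28.6, 75.7 and 118 CPM in DC, against 0, 1.41 and 4.72 CPM in AM (5.58 ± 0.47, adjusted p = 3.28e-08). Ccl22, a chemokine for regulatory T cells, had 185, 333 and 386 CPM in DC, against 1.35, 4.50 and 12.7 CPM in AM (5.80 ± 0.33, adjusted p = 3.59e-10). The groups were apart in each of these, with Ccr7 at 0 in 4 AM libraries. Cd86, a costimulatory ligand of T cells, had 412, 503 and 539.8 CPM in DC, against 16.2, 59.9 and 68.8 CPM in AM (3.31 ± 0.21, adjusted p = 9.85e-10), and Il4i1, an amino acid oxidase (6.59 ± 0.34), and Cacnb3, a calcium channel subunit (7.48 ± 0.42), were called too. Il12b, a subunit of interleukin 12, had 48.3, 71.9 and 104 CPM in DC, against 0 CPM in every AM library, at least 192-fold higher.

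The exceptions were the ligands that restrain T cells through PD-1. Cd274, which encodes PD-L1, had 57.01, 87.5 and 124 CPM in DC, against 131, 159.7 and 184 CPM in AM and was lower in DC (−0.82 ± 0.17, adjusted p = 0.000506), and so was Pdcd1lg2, which encodes PD-L2 (−0.76 ± 0.28, adjusted p = 0.0301), whose groups overlapped. In normoxia the costimulatory ligand transcript Cd86 was therefore called on the DC side and both PD-1 ligand transcripts on the AM side. With single libraries left out the list had 1 to 2 lower calls, and in hyperoxia it had 1.

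The 10 steepest higher genes with a mean of at least 50 CPM in DC were Mgl2, Sept3, Il12b, Lad1, Cd209a, Gpr141b, H2-M2, Tspan33, Ccr7 and Apol7c. Sept3, a septin known mostly from neurons, had 46.6, 70.4 and 114 CPM in DC, against 0 CPM in every AM library, at least 182-fold higher, and Lad1, an anchoring filament protein of epithelia, had 24.2, 55.5 and 76.8 CPM in DC, against 0 CPM in every AM library, at least 139-fold higher. H2-M2, a non-classical MHC class I gene, had 106, 142 and 185 CPM in DC, against 0, 0 and 1.57 CPM in AM, a ratio of 556 (95% interval 154 to 4599) in CPM. Gpr141b, an orphan receptor gene, had a ratio of 729 (95% interval 202 to 6025) and the tetraspanin Tspan33 372 (95% interval 103 to 3075). Apol7c, an apolipoprotein L family gene, had 123, 176 and 251 CPM in DC, against 0, 0 and 3.38 CPM in AM (7.94 ± 0.43). Sept3 and H2-M2 also stood at 0 in every normoxic Ly6Chi and Ly6Clo library, and Gpr141b and Apol7c averaged at most 3.04 CPM there.

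AM markers were lower in DC, 22 of 24 and all 22 without overlap (median −3.68). Siglecf, whose protein set the AM gate, is counted among them. Marco, a scavenger receptor, had 0, 4.72 and 18.9 CPM in DC, against 212, 266 and 308 CPM in AM (−5.44 ± 0.53, adjusted p = 7.36e-06). Chil3, a chitinase-like secreted protein, had 18.4, 50.2 and 73.1 CPM in DC, against 183, 425 and 456 CPM in AM (−3.02 ± 0.32, adjusted p = 6.91e-06). Fabp4, a fatty acid carrier under Pparg control, had 2.66, 17.4 and 32.7 CPM in DC, against 169, 271 and 426 CPM in AM (−4.21 ± 0.24, adjusted p = 1.43e-10). Ear2, a ribonuclease of the eosinophil-associated family, had 121, 148 and 198 CPM in DC, against 326, 406 and 574 CPM in AM (−1.48 ± 0.13, adjusted p = 4.26e-08), and its level is uncertain because near-identical family copies may share reads. The AM libraries lay above every DC library in all 4 genes. AM of these newborn pups thus carried the surface, secreted and lipid-binding products of this list together.

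Further members with the smallest p were Atp6v0d2, a proton pump subunit (47.8, 57.7 and 88.03 CPM in DC, against 1161, 1243 and 1424 CPM in AM, −4.37 ± 0.15, adjusted p = 4.63e-13), Plet1, an epithelial surface protein (−2.70 ± 0.11), Perp, a desmosomal protein (−4.32 ± 0.19), and F7, coagulation factor VII (−4.61 ± 0.22). Ctsk, a cysteine protease, was not called (128 ± 133 CPM in DC and 285 ± 81.3 CPM in AM, SD, n = 6 each), and Flrt3, a membrane adhesion protein, went against the list, with 21.7, 45.8 and 53.5 CPM in DC, against 2.16, 9.48 and 16.9 CPM in AM (2.15 ± 0.36, adjusted p = 7.66e-05). The 10 steepest lower genes were Krt79, Ear6, Prom1, Trim29, Slc39a2, Ear1, Marco, Cidec, Bhlhe41 and Clmn. Krt79, a keratin, had 0, 0 and 0.636 CPM in DC, against 47.6, 60.8 and 79.5 CPM in AM, and its AM over DC ratio was 723 (95% interval 129 to 28631) in CPM. Prom1, which encodes prominin (−6.01 ± 0.36), Trim29, a regulator of innate signalling (−5.72 ± 0.31), the zinc transporter Slc39a2 (−5.70 ± 0.34), the lipid droplet gene Cidec (−4.91 ± 0.56) and Clmn (−4.75 ± 0.33) were in the same range, as were Ear6 (−7.48 ± 0.32) and Ear1 (−5.66 ± 0.29).

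Transcription factors of AM, led by Bhlhe41 and Pparg, differed by more than the chains of the GM-CSF receptor. Of 19 growth factor receptor and transcription factor genes 12 were lower in DC and 3 higher (median −1.66). Csf2ra, the alpha chain of the GM-CSF receptor, had 193, 274 and 319 CPM in DC, against 199, 299 and 404 CPM in AM and was not called (−0.12 ± 0.16, adjusted p = 0.526). The shared beta chain Csf2rb had 289, 313 and 325 CPM in DC, against 295, 401 and 463 CPM in AM, a small and overlapping difference (−0.36 ± 0.11, adjusted p = 0.0143) whose call ended without litter 108, without DC replicate 5 and without the filter on low counts. Reads of Csf2rb and its near-copy Csf2rb2 may be shared. Csf1r, the receptor for macrophage colony-stimulating factor, was higher in DC, at 358, 446 and 758 CPM in DC, against 104, 142 and 167 CPM in AM (1.80 ± 0.13, adjusted p = 1.46e-09), with no overlap.

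Downstream, Pparg had 32.7, 47.7 and 66.8 CPM in DC, against 239, 315 and 361 CPM in AM (−2.66 ± 0.16, adjusted p = 2.06e-10), with no overlap. The repressor Bhlhe41 (−4.83 ± 0.28), the MiT family factor Tfec (−2.48 ± 0.19) and the TGF-beta receptor Tgfbr2 (−1.84 ± 0.14) were lower in DC too. Maf (40.2, 68.1 and 104 CPM in DC, against 3.15, 4.29 and 12.1 CPM in AM, 3.55 ± 0.34), a factor of monocyte-derived and interstitial macrophages that mouse AM are known to keep low, was higher in DC, on the same side as Csf1r and the C1q genes. The alpha chain of the GM-CSF receptor thus had a log2 difference of −0.12 ± 0.16 beside a Pparg level 6.34-fold lower in DC.

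Genes of lipid handling were mostly lower in DC, 20 of 30, with 2 higher (median −0.95). Cd36, a fatty acid and lipoprotein receptor, had 346, 522 and 609.8 CPM in DC, against 916, 1009 and 1160.3 CPM in AM (−1.04 ± 0.12, adjusted p = 1.31e-06). Plin2, which coats lipid droplets, had 494, 657 and 668 CPM in DC, against 986, 1221 and 1513 CPM in AM (−0.95 ± 0.10, adjusted p = 2.75e-07). Lpl, lipoprotein lipase, had 93.5, 135 and 142 CPM in DC, against 871, 971 and 1449 CPM in AM (−3.07 ± 0.15, adjusted p = 1.34e-11). The groups did not overlap in these genes. Mgll, a monoglyceride lipase (−4.04 ± 0.22), and Nceh1, which hydrolyses cholesterol esters (−2.20 ± 0.13), were among the smallest p. Against the list, Apoe, the apolipoprotein of cholesterol export, had 793, 909 and 1027 CPM in DC, against 386, 549 and 759 CPM in AM (0.69 ± 0.13, adjusted p = 0.000266), and the phospholipid transfer gene Pltp was higher as well (0.89 ± 0.30, adjusted p = 0.0207). Within litter 108 the Apoe difference was 0.17.

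Cholesterol synthesis genes leaned the same way with smaller steps, 12 of 21 lower and 1 higher (median −0.66, 4 without overlap). Sqle, squalene epoxidase, had 36.3, 53.2 and 62.1 CPM in DC, against 88.9, 109 and 131 CPM in AM (−1.06 ± 0.17, adjusted p = 5.56e-05), fully apart. Stard4 (−1.46 ± 0.17), Mvd (−1.13 ± 0.18) and Cyp51 (−0.83 ± 0.15) were lower, and Srebf2, which encodes the transcription factor of this pathway, was the member on the DC side (0.56 ± 0.17, adjusted p = 0.0122). The sterol response letters TCACNCCAC were in 1 of 16 promoter windows of this list (6.25%) and in 1.44% of all genes. That match was in Hmgcs1, which was not among the genes tested, so no tested member of the list had one.

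Phagocytic receptors were divided. Of 22 genes 19 were tested, 9 lower and 4 higher in DC. Mertk, which engulfs dying cells, had 24.2, 33.04 and 84.4 CPM in DC, against 234, 283 and 411 CPM in AM (−2.82 ± 0.27, adjusted p = 3.14e-07). Its relative Axl (−1.09 ± 0.12), the beta-glucan receptor Clec7a (−1.13 ± 0.11) and Cd68 (−0.67 ± 0.11) were lower as well. Msr1, a scavenger receptor, had 43.6, 142 and 170.1 CPM in DC, against 152, 189 and 226 CPM in AM (−0.66 ± 0.19, adjusted p = 0.00604), overlapping, and its call ended with all 22 DC and AM libraries in 1 fit (adjusted p = 0.115), within litter 100 and within litter 108, where the fold change was −0.26. Fc receptor genes were called on the DC side or not at all: Fcgr1, the high-affinity receptor for IgG, had 174, 214 and 261 CPM in DC, against 70.1, 113 and 146 CPM in AM (0.96 ± 0.14, adjusted p = 1.62e-05) and Fcgr2b, the inhibitory one, which B cells also express, was at 2.49 ± 0.17, while Fcgr3 and Fcgr4 did not pass the test. Stab1, a scavenger receptor of interstitial macrophages (3.62 ± 0.36), and the lipopolysaccharide co-receptor Cd14 (0.81 ± 0.19) were higher too. Timd4, a phosphatidylserine receptor, had 300 counts over the DC libraries and 0 over the AM libraries, with 21.2, 98.95, 6.71, 7.63, 1.90 and 20.5 CPM in DC replicates 1 to 6, by far the highest in replicate 2.

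Lysosomal genes were lower in DC by modest amounts, 16 of 22 with 2 higher (median −0.49). Ctsd, an aspartic protease, had 336, 493.5 and 733 CPM in DC, against 1225, 1453 and 1847 CPM in AM (−1.57 ± 0.12, adjusted p = 2.64e-09). Ctss, the protease that trims the invariant chain, had 822, 956 and 1175 CPM in DC, against 1233, 1487 and 1973 CPM in AM (−0.65 ± 0.11, adjusted p = 8.24e-05). Neither overlapped. Subunits of the proton pump, Atp6v1a (−1.67 ± 0.11) and Atp6v0d1 (−1.32 ± 0.12), and Ctsl (−1.50 ± 0.13) were among the smallest p. Ctsh, a cysteine protease, was higher in DC (0.77 ± 0.12). Class II chain transcripts were thus higher in DC while Ctss, which serves class II loading, was higher in AM.

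**Figure D3:**
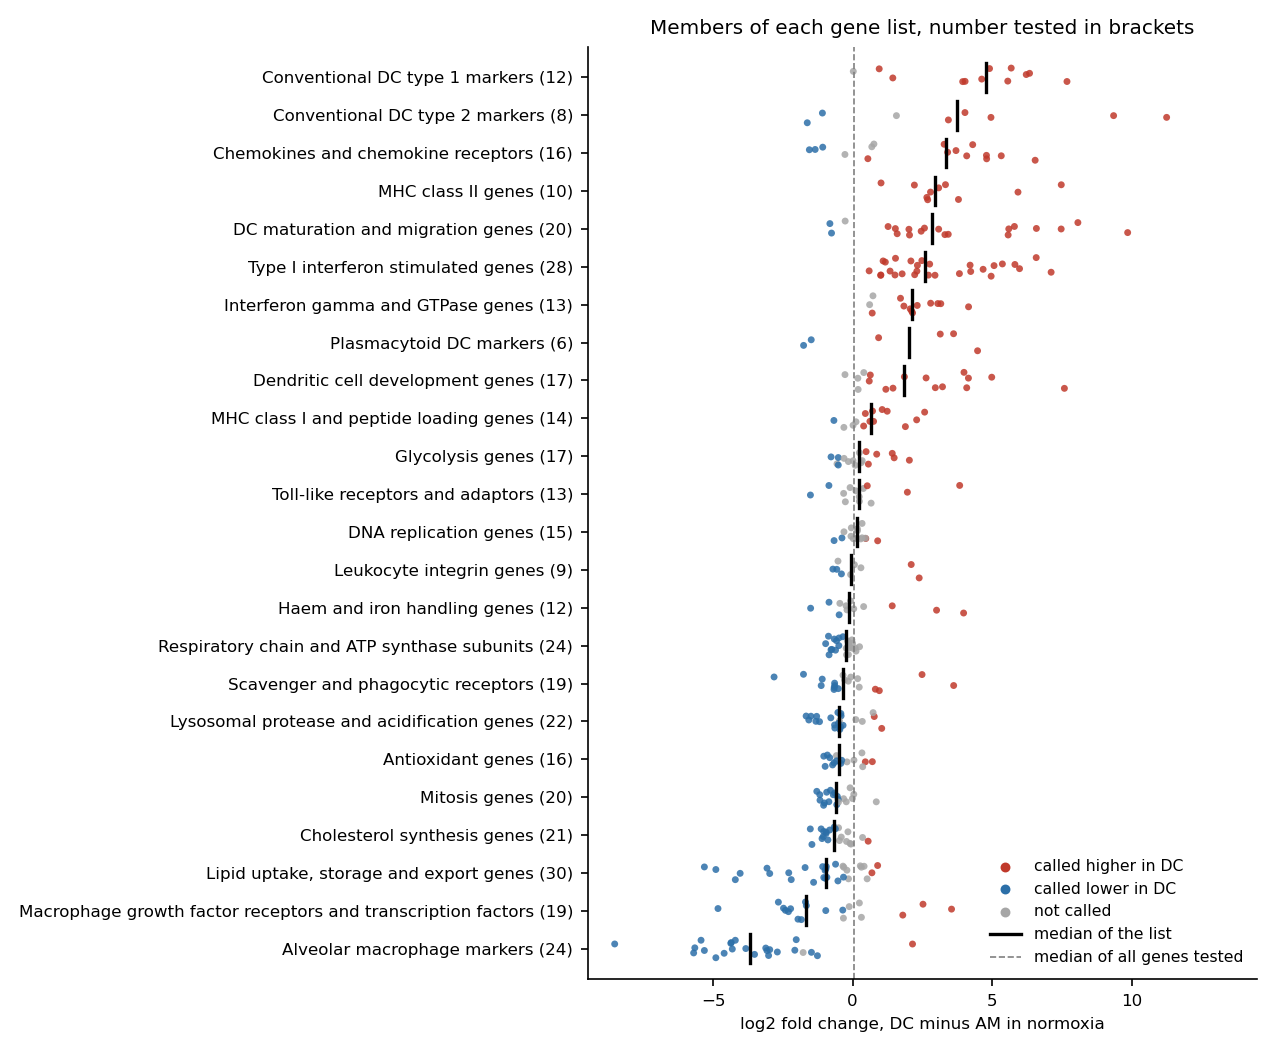
Log2 fold change, DC minus AM in normoxia, of each tested member of 24 gene lists, with the number tested in brackets; red points were called higher in DC, blue points lower and grey points were not called. Black bars are list medians, from −3.68 for AM markers to 4.77 for type 1 DC markers, and the dashed line is the median of all genes tested, 0.04.

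Type I interferon stimulated genes were higher in DC in every case tested. Of 29 genes 28 were tested and 28 were called higher, 25 without overlap (median 2.60). Irf7, the factor that amplifies interferon production, had 166, 297 and 342 CPM in DC, against 5.39, 9.14 and 11.8 CPM in AM (5.07 ± 0.21, adjusted p = 2.10e-12). Ifit3, an antiviral RNA-binding protein, had 37.9, 47.8 and 66.5 CPM in DC, against 0, 0.566 and 2.55 CPM in AM (5.82 ± 0.47, adjusted p = 7.70e-09). Isg15, a ubiquitin-like modifier, had 33.6, 43.5 and 62.04 CPM in DC, against 0, 1.70 and 4.72 CPM in AM (4.23 ± 0.46, adjusted p = 3.69e-07). Every DC library stood above every AM library in these genes, and AM libraries were near 0 for Ifit3 and Isg15.

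Mx1, an antiviral GTPase, had 66.3, 138 and 162 CPM in DC, against 0, 1.63 and 4.25 CPM in AM (5.98 ± 0.36, adjusted p = 1.72e-10). Irf9, a factor of the interferon response, was at 2.32 ± 0.16 and the restriction factor Trim30a at 1.77 ± 0.13. Ifit3 and Mx1 were thus at or near 0 in AM. The mean log2 CPM of the 29 genes was 6.11 to 6.52 in DC libraries and 2.89 to 3.72 in AM libraries. Across the other normoxic populations it was 7.09 to 7.64 in Ly6Chi and 4.58 to 5.47 in Ly6Clo, so AM were the low group of the 4 and DC were not the high one. Ly6C populations are given for their values only. Classical monocyte markers, which Ly6Chi cells carry, were higher in DC too, and their part in the interferon difference was not tested.

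Interferon gamma and GTPase genes followed, 11 of 13 higher and none lower (median 2.11). Gbp2, a guanylate-binding protein, had 53.8, 92.1 and 107 CPM in DC, against 5.77, 18.5 and 33.97 CPM in AM (2.15 ± 0.29, adjusted p = 7.93e-06). Irgm1, an immunity-related GTPase, had 207, 253 and 339 CPM in DC, against 45.7, 60.3 and 72.8 CPM in AM (2.11 ± 0.16, adjusted p = 2.97e-09). Irf1, an interferon response factor, had 182, 237 and 264 CPM in DC, against 22.9, 56.8 and 91.2 CPM in AM (2.06 ± 0.19, adjusted p = 4.66e-08). None of the 3 overlapped. The receptor chain Ifngr1 (1.72 ± 0.12) and the GTPase Igtp (2.80 ± 0.28) were higher, and Gbp7 and the chemokine gene Cxcl10 (22.9 ± 25.8 CPM in DC and 16.01 ± 23.8 CPM in AM, SD, n = 6 each) were not called.

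MHC class I and peptide loading genes moved less, 10 of 14 higher and 1 lower (median 0.67). H2-K1, a classical class I chain, had 486, 541 and 608 CPM in DC, against 293, 329.6 and 355 CPM in AM (0.71 ± 0.10, adjusted p = 1.06e-05), apart but by 1.64-fold. The peptide transporter genes Tap1 (2.58 ± 0.20) and Tap2 (1.89 ± 0.21) and the non-classical chains H2-M3 (2.29 ± 0.17) and H2-T23 (1.24 ± 0.12) were higher, and the chaperone Canx was lower (−0.67 ± 0.11). The members that did not pass the test were the chaperone Calr, B2m, the light chain of class I, and H2-D1, the other classical chain (863 ± 66.6 CPM in DC and 791 ± 119 CPM in AM, SD, n = 6 each).

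The interferon-stimulated response element is the site that the Irf9 complex binds after interferon signalling. Letters like it, GAAA followed by any 2 bases and GAAA again, on either strand, were in the windows of 11 of 20 type I genes (55%), 9 of 13 interferon gamma and GTPase genes (69.2%) and 3 of 14 class I genes (21.4%), against 3.99% of 27025 genes. The windows of Ifit3 (chr19:34583279-34583578, plus strand) and Isg15 (chr4:156200769-156201068, minus strand; both GRCm38.p6, RefSeq) are shown because these effector genes were near 0 in AM and hold matches. Capitals mark the matches, which begin 156 and 122 bases before the start in Ifit3, read on the reverse strand, and 78, 72 and 66 bases before it in Isg15, where they overlap.
Ifit3: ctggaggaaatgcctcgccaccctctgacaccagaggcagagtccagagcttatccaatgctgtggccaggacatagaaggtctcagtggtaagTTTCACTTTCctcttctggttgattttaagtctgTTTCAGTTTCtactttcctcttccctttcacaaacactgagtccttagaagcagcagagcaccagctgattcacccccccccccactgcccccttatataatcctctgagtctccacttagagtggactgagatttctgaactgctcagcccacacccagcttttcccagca
Isg15: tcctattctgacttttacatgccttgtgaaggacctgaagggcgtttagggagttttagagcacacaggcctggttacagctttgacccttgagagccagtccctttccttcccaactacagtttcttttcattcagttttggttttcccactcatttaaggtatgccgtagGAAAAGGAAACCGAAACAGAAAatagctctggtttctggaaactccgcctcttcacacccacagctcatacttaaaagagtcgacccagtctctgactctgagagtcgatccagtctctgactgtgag
The window of Irf7 held no match of these letters, and Mx1 has no window in the table used.

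**Figure D4:**
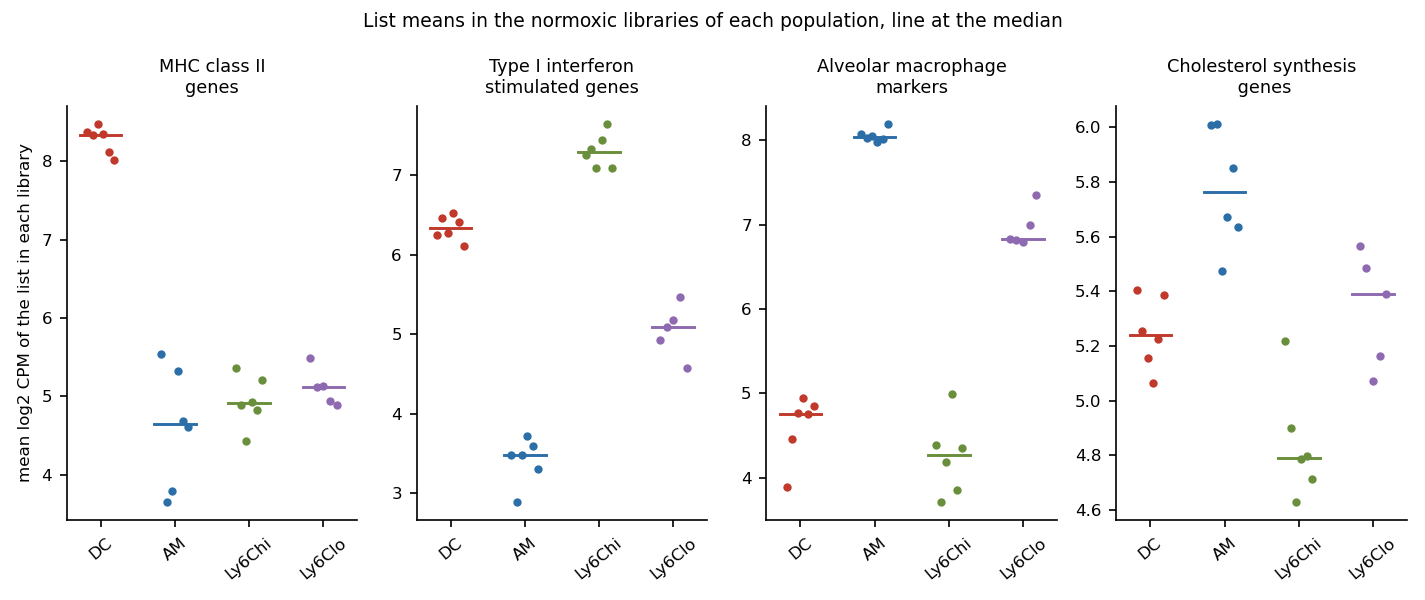
Mean log2 CPM of 4 gene lists in each normoxic library of the 4 populations, with a line at the median. Type I interferon genes run from 2.89 to 3.72 in AM, below DC (6.11 to 6.52) and both Ly6C populations, class II genes are highest in DC, and AM markers are highest in AM with Ly6Clo next (6.79 to 7.35).

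The other populations place the remaining lists. The mean log2 CPM of class II genes was 8.02 to 8.47 in DC, against 3.66 to 5.55 in AM, 4.43 to 5.37 in Ly6Chi and 4.88 to 5.49 in Ly6Clo. For AM markers it was 3.90 to 4.94 in DC, 7.98 to 8.19 in AM, 3.72 to 4.99 in Ly6Chi and 6.79 to 7.35 in Ly6Clo. Ly6Clo cells, gated high for CD11c like AM, thus lay between DC and AM in AM markers, with a mean of 246 CPM for Pparg and 162 CPM for Fabp4. Cholesterol synthesis genes ran from 5.06 to 5.41 in DC and 5.47 to 6.01 in AM to 4.63 to 5.22 in Ly6Chi and 5.07 to 5.57 in Ly6Clo.

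Chemokine receptors were among the clear differences, with 10 of 16 tested chemokine and receptor genes higher and 3 lower in DC (median 3.34). Ccr2, which brings monocytes and DC from the blood, had 944, 1042 and 1209 CPM in DC, against 44.5, 76.9 and 124 CPM in AM (3.71 ± 0.19, adjusted p = 6.18e-11). Cx3cr1, the fractalkine receptor, had 156, 239.9 and 342 CPM in DC, against 2.02, 7.91 and 22.02 CPM in AM (4.80 ± 0.26, adjusted p = 4.86e-11). Both genes separated the groups, and both are monocyte genes, whose markers were also on the DC side. The T helper 1 receptor Cxcr3 (6.54 ± 0.45) and the membrane chemokine Cxcl16 (4.80 ± 0.18) were higher. Secreted chemokines of AM went the other way: Ccl6 had 529, 593 and 817 CPM in DC, against 1313, 1706 and 2769 CPM in AM (−1.55 ± 0.14, adjusted p = 6.16e-08), and Ccl9 (−1.07 ± 0.10) and Ccl3 (−1.35 ± 0.20) were lower.

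Pattern recognition, adhesion and metabolism differed by gene more than by list. Of 13 Toll-like receptors and adaptors 3 were higher (the chaperone of endosomal receptors Unc93b1, 1.96 ± 0.16, Tlr1, 3.84 ± 0.48, and the adaptor Myd88, 0.52 ± 0.16) and 2 lower (Tlr4, −0.85 ± 0.28, and Tlr7). Without AM replicate 3, the smallest library, 5 were higher and 2 lower. Tlr7, a sensor of single-stranded RNA, had 37.7, 50.2 and 84.8 CPM in DC, against 126, 161 and 181 CPM in AM (−1.51 ± 0.17, adjusted p = 5.08e-07), and Tlr2, a lipopeptide receptor, had 65.4, 129 and 204 CPM in DC, against 122, 168 and 206 CPM in AM and was not called (−0.32 ± 0.18, adjusted p = 0.143). Of 9 integrins 2 were higher and 3 lower. Itgam, which encodes CD11b, had 128, 148 and 193 CPM in DC, against 18.1, 35.7 and 49.1 CPM in AM (2.10 ± 0.20, adjusted p = 5.61e-08), Itga4 was higher (2.39 ± 0.13), and Itgb2 (−0.57 ± 0.12) and Itga6 (−0.71 ± 0.21) were lower beside Itgax.

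Glycolysis had 6 of 17 genes higher and 3 lower, beside 27.2% and 24% of all genes tested. In hyperoxia 4 of its genes were higher and 5 lower. The higher ones in normoxia included Hk1 (2.03 ± 0.37), Pfkl (1.42 ± 0.24), Pfkp (0.86 ± 0.14) and Pkm (0.56 ± 0.12). The lower ones were Aldoa (−0.52 ± 0.095), Aldoc (−0.52 ± 0.17) and the pyruvate dehydrogenase kinase Pdk1 (−0.78 ± 0.17). Hk2, an inducible hexokinase, had 83.3, 90.2 and 165 CPM in DC, against 41.1, 94.99 and 164 CPM in AM and was not called (0.015 ± 0.26). Respiratory chain and ATP synthase subunits had 11 of 24 lower and 0 higher (median −0.23), with Cox7a2 (−0.97 ± 0.17), Cox5a (−0.87 ± 0.16), Ndufa4 (−0.85 ± 0.19) and Cox4i1 (−0.75 ± 0.14) the clearest and a single gene free of overlap. Ndufa9, a subunit of complex I, had 277, 333 and 361 CPM in DC, against 127, 358 and 389 CPM in AM and a fold change of 0.0031 ± 0.19. The called subunits were thus all on the AM side.

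Haem, iron and antioxidant genes were divided. Slc40a1, the iron exporter ferroportin, had 17.6, 56.5 and 160.4 CPM in DC, against 0.674, 6.49 and 28.9 CPM in AM (3.01 ± 0.36, adjusted p = 1.28e-06), overlapping through AM replicate 6, and Slc11a1, a phagosomal metal transporter (3.98 ± 0.28), and Hpgd, which degrades prostaglandins (1.42 ± 0.16), were higher as well. Blvra (−1.51 ± 0.10) and Blvrb (−0.49 ± 0.14), the biliverdin reductases, and the ferritin chain Fth1 (−0.85 ± 0.15) were lower, and haem oxygenase, Hmox1, had 77.97, 171 and 228 CPM in DC, against 103, 149 and 244 CPM in AM with no call (0.038 ± 0.22). Of 16 antioxidant genes 9 were lower and 2 higher (Gclc, 0.71 ± 0.19, and catalase, Cat, 0.45 ± 0.12; median −0.50). Prdx1, a peroxiredoxin, had 242, 289 and 424 CPM in DC, against 492.6, 602 and 753 CPM in AM (−0.99 ± 0.12, adjusted p = 2.24e-06), and Txnrd1 (−1.04 ± 0.18), Pgd (−0.91 ± 0.14) and Gsr (−0.82 ± 0.12) went with it. Slc7a11, the cystine transporter, had 24.6, 48.6 and 57.8 CPM in DC, against 35.7, 63.1 and 110.01 CPM in AM and just missed the threshold (−0.58 ± 0.24, adjusted p = 0.0546), a call that 7 of the alternative settings made.

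Mitosis genes were lower in DC in air and DNA replication genes were mixed. Of 20 mitosis genes 13 were lower and 0 higher in normoxic DC (median −0.61), and of 15 replication genes 2 were lower and 2 higher (median 0.17). Mki67, which marks cycling cells, had 59.7, 120.5 and 167 CPM in DC, against 159.7, 199 and 278 CPM in AM (−0.85 ± 0.18, adjusted p = 0.000584), and the fold change within litter 93 was −0.30. Birc5 (−1.17 ± 0.19), Cenpf (−1.01 ± 0.17), Ube2c (−1.04 ± 0.19) and Bub1b (−1.29 ± 0.23) were the clearest, and Top2a, a topoisomerase of dividing cells, had 51.7, 141 and 169 CPM in DC, against 111, 162 and 188 CPM in AM and was not called (−0.32 ± 0.18, adjusted p = 0.145). The groups overlapped for 19 of the 20 mitosis genes.

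On the replication side Mcm6, a subunit of the replicative helicase, had 106, 244 and 302 CPM in DC, against 86.3, 122 and 160.2 CPM in AM (0.90 ± 0.16, adjusted p = 0.000164), overlapping, and Mcm7 was higher (0.47 ± 0.19). Pcna, the sliding clamp, had 62.7, 87.6 and 97.3 CPM in DC, against 93.7, 101 and 125 CPM in AM (−0.38 ± 0.15, adjusted p = 0.0342), an overlapping difference and a call lost in 11 of the alternative settings besides within litters 93 and 100 and the test against a log2 fold change of 1, and the licensing factor Cdt1 was lower (−0.67 ± 0.20). Both populations therefore held cycling transcripts, and the called mitosis genes were more abundant in AM.

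The same comparison in hyperoxia uses libraries that the normoxic one does not, 5 of DC and 5 of AM. It called 4882 of 10496 genes (46.5%), 2499 higher (23.8%) and 2383 lower (22.7%) in DC. Of 10338 genes tested in both, 3972 were called in the same direction, which is 82.3% of the 4824 hyperoxic calls and 74.5% of the 5335 normoxic calls, and 3 were called in opposite directions. The larger lists gave these values in each condition: class II genes were 10 of 10 higher in hyperoxia and in normoxia (medians 2.92 and 2.94), AM markers 21 of 23 and 22 of 24 lower (medians −3.94 and −3.68), and type I interferon genes 23 of 27 and 28 of 28 higher (medians 2.11 and 2.60). The class II and AM lists hold genes of the sort gates. The hyperoxic interferon sums were uneven, with 7449 CPM in DC replicate 3 and 2958 to 3155 CPM in the other hyperoxic DC libraries. Hyperoxic AM replicates 3 and 5 had 2269 and 1955 CPM, and the other hyperoxic AM libraries 743 to 958 CPM. Without the 3 hyperoxic libraries under 1000000 counts the hyperoxic count was 2146, and without litter 93 it was 2508. Hyperoxia and normoxia share litters but no library, so the 2 sets of calls rest on different samples of the same litters.

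No gene passed the direct test of whether the DC minus AM difference itself differed between hyperoxia and normoxia. Of 11748 genes in 22 libraries edgeR called 0 (0%), with 818 (6.96%) at an unadjusted p under 0.05 and a smallest adjusted p of 0.315. DESeq2 called 7, limma voom 0, edgeR without the filter on low counts 220, and edgeR without libraries under 1000000 counts 7. The smallest p values, all short of the threshold, were those of H2-M2 (−4.62 ± 0.97), Itgam (−1.66 ± 0.35), Depdc7 (2.28 ± 0.49), Ezh2 (1.06 ± 0.23) and Slc11a1 (−2.48 ± 0.53), with negative values where DC were ahead by less in hyperoxia.

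Cell cycle genes leaned to DC more in hyperoxia than in normoxia, by amounts that depended on the litters included. In hyperoxia 13 of 15 replication genes were higher in DC and 0 lower (median 0.89), against 2 higher and 2 lower in normoxia. Of 20 mitosis genes 6 were higher and 0 lower in hyperoxia (median 0.74), against 0 higher and 13 lower in normoxia. Among all genes tested in hyperoxia 23.8% were called higher and 22.7% lower. Without litter 108 the hyperoxic mitosis count was 1 higher and 1 lower (median 0.11). It was 12 higher and 0 lower without litter 93 (median 1.45), and 2 higher and 0 lower without the litter block (median 0.43). Mcm6 had a DC minus AM difference of 1.72 ± 0.18 in hyperoxia and 0.90 ± 0.16 in normoxia, and Mki67 −0.085 ± 0.22 and −0.85 ± 0.18. The direct test gave a positive value for all 15 replication genes (median 0.81) and all 20 mitosis genes (median 1.14), with 0 called and 11 and 13 at an unadjusted p under 0.05. Without the filter on low counts 3 replication and 12 mitosis genes were called, and without libraries under 1000000 counts 1 mitosis gene was. The median of the mitosis genes in that test was 2.07 without litter 93, 0.43 without litter 108, with 18 of 20 positive, and 1.88 without libraries under 1000000 counts.

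Levels of both populations differed between litters. The mean log2 CPM of mitosis genes was 5.45 to 6.78 in hyperoxic DC, 4.38 to 6.78 in hyperoxic AM, 5.34 to 6.39 in normoxic DC and 5.87 to 6.78 in normoxic AM. In hyperoxic AM of litter 93 it was 6.78 and 6.50, in the library of litter 100 it was 4.38, and in litter 108 it was 5.13 and 4.52. The litter 93 libraries of hyperoxic AM thus lay among the normoxic AM libraries, and the other 3 lay below every normoxic AM library. In litter 108 DC it was 6.28 and 6.37 in hyperoxia, against 5.35 and 5.88 in normoxia, so DC were higher and AM lower in hyperoxia in that litter. Hyperoxic AM replicates 1, 2 and 3 held under 1000000 counts each, so the low values were found in small and larger libraries, and the part of the litter was not tested further.

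**Figure D5:**
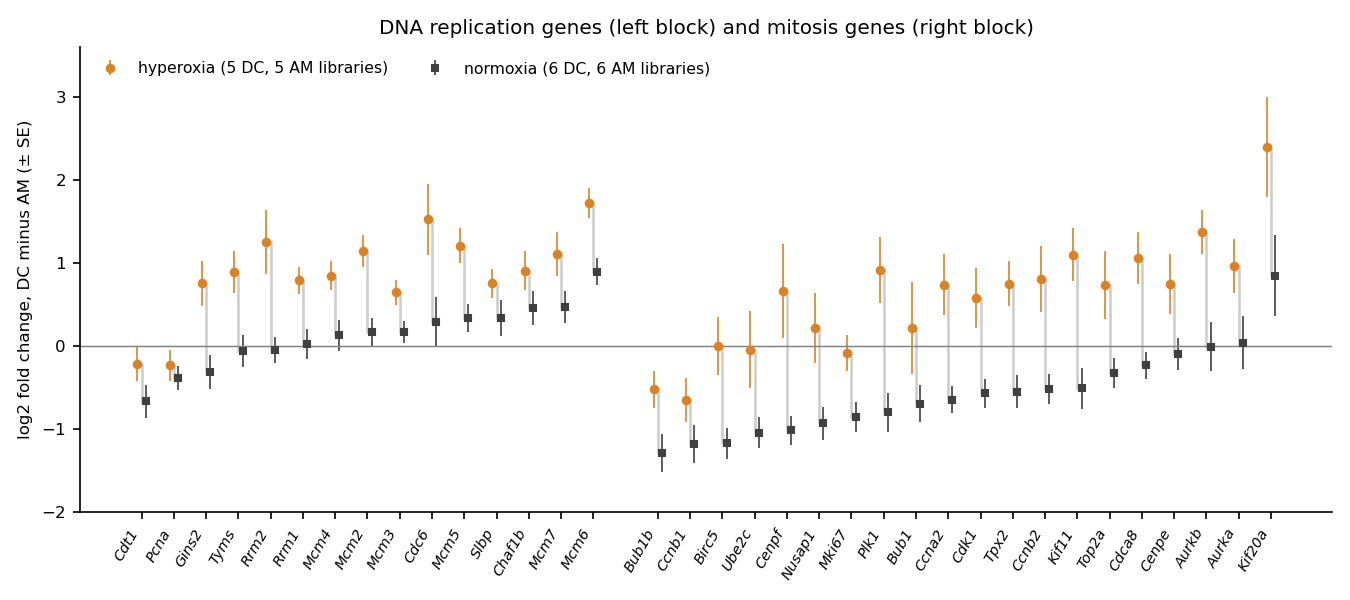
Log2 fold change, DC minus AM, of each replication gene (left block) and mitosis gene (right block) in hyperoxia (orange circles) and in normoxia (grey squares), with bars of 1 SE. Every gene lies higher in hyperoxia than in normoxia, for instance Mcm6 at 1.72 and 0.90, and no single difference passed the adjusted test.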

How the data were processed

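RNA of sorted cells was amplified with SMART-Seq v4 and made into Nextera XT libraries, per the labels' protocols. Neither kit marks strand. The authors deposited raw counts per gene for 43 libraries, and the submitters' processing notes name TopHat, build NCBIM37 and HTSeq 0.4.1. Symbols were matched to GENCODE M21 (32919 of 37991 genes), and rows without one held 0.828% of counts. Totals were 570769 to 2403861 counts in the 12 libraries compared.

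Genes passed edgeR's filterByExpr (minimum count 10, total 15). Counts were scaled by TMM and fitted with edgeR 4.0.16 (robust quasi-likelihood, litter as an additive block; SE is the fold change over the root of F), with Benjamini-Hochberg adjustment over all genes tested. Hyperoxia and the interaction were fitted likewise, and scripts were tested on simulated counts. The litters were given in the labels, and the libraries of a litter carry consecutive replicate numbers. Alternatives used DESeq2 1.42.0, limma 3.58.1 voom, other scalings and filters, no litter block, and single litters or libraries left out. Genes named are core genes, the 10 steepest in each direction with a group mean of at least 50 CPM, and the 4 called list members with the smallest p in each direction. Some genes that this rule names are not reported here. Other names (members that did not pass the test, genes at 0 in 1 group and the smallest interaction p) were chosen after their values were seen. The members and lists were chosen with earlier results of these data known. Genes with near-identical copies (the Ear, Csf2rb, Ly6c, Ifit, Oas, Gbp, Cd209 and MHC families) and antisense partners may share reads. Sequences are from RefSeq.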

Additional observations from a re-analysis of the deposited data

Results flagged for a closer look

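Each core gene and each of the steepest genes in either direction was screened for a highest or lowest library far from its nearest neighbour. The screen used each group of 6 libraries (Dixon's test at 95%) and also covered library totals and genes detected. Other list members named above, such as Folr2 and Timd4, were not screened. Of 184 groups screened 24 were picked out. The test's rate of about 1 in 20 assumes normally distributed values, so it cannot be set against this number. Where all other libraries of a group stood at 0, any count was picked, as for Krt79, H2-M2, Tspan33 and Cd209a. No cause was weighed or tested.

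AM replicate 3, the smallest library of the 12, stood apart most often. It was low for Ndufa9 (127 CPM, the next library 337 CPM), Chil3 (183 CPM, next 372 CPM) and the zinc transporter Slc39a2 (113 CPM, next 334 CPM). It was high for S100a8 (389 CPM, next 211 CPM), Bhlhe41 (305 CPM, next 179 CPM) and Clmn (118 CPM, next 64.2 CPM). Its values thus departed in both directions.

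AM replicate 6 was high for 4 genes that are higher in DC. Ccr7 was 6.80 CPM there (next 1.57 CPM), Siglech 15.3 CPM (next 2.83 CPM) and Cd209a 2.55 CPM (next 0 CPM), and the iron exporter Slc40a1 was 28.9 CPM (next 9.44 CPM). Without that library the log2 fold changes were 9.90 for Ccr7, 6.20 for Siglech and 3.50 for Slc40a1.

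Among DC, Siglecf was 24.6 CPM in DC replicate 5 (next 10.0 CPM) and Marco was 18.9 CPM in DC replicate 6 (next 5.87 CPM). DC replicate 3 was high for Hbb-bs (99.8 CPM, next 3.82 CPM), Prg2 (4.19 CPM, next 1.27 CPM) and Hk2 (165 CPM, next 94.2 CPM) and low for Plin2 (494 CPM, next 649.6 CPM). DC replicate 2 was high for the T cell gene Cd3e (30.3 CPM, next 1.68 CPM) and for Itgam (193 CPM, next 149.9 CPM), and DC replicate 1 was low for Gbp2 (53.8 CPM, next 91.0 CPM).

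The remaining values were Pecam1 at 87.6 CPM in AM replicate 4 (next 41.7 CPM), Cidec at 117 CPM in AM replicate 1 (next 69.2 CPM), H2-M2 and Tspan33 each at 1.57 CPM in AM replicate 5 with 0 in the other AM libraries, and Krt79 at 0.636 CPM in DC replicate 4 with 0 in the other DC libraries.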

How the results depend on the processing

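Of 5559 normoxic calls, other settings gave 4680 to 6360 (DESeq2 5748, limma voom 5833), single libraries left out 4968 to 5887, and single litters left out 3717 to 6084. Within litter 100 there were 1519, within litter 93 4077 and within litter 108 5134, and the test against a log2 fold change of 1 gave 1423. Litters pair the libraries by the labels: without this replicate block 4990 genes were called, 4979 of them among the 5559. The hyperoxic count (4882) was 2146 without libraries under 1000000 counts and 2508 without litter 93. The interaction count (0) was 7 with DESeq2, 220 without the filter on low counts and 7 without libraries under 1000000 counts. The causes were not tested. For the core genes tested and the steepest genes in either direction, 2401 values kept direction and call and 62 lost the call. Another 16 gained the call and 40 changed sign, the last all in 6 genes without a call in the full comparison. Other list members named above were not in these counts. Csf2ra (−0.12) turned to 0.012 without libraries under 1000000 counts, and was −0.23 to 0.012 with single libraries left out. Tlr2 (−0.32) turned to 0.11 within litter 108. Hk2 (0.015) turned to −0.072 under upper-quartile scaling, −0.031 with a minimum count of 30, −0.15 without litter 100, −0.25 within litter 93, −0.062 within litter 108 and −0.061 with all 22 libraries in 1 fit, and was −0.22 to 0.21 with single libraries left out. Ndufa9 (0.0031) turned to −0.031 with limma voom, −0.081 under upper-quartile scaling, −0.040 with a minimum count of 30, −0.013 without the litter block, −0.20 without libraries under 1000000 counts, −0.28 without litter 100, −0.23 within litter 93, −0.34 within litter 108 and −0.045 with all 22 libraries in 1 fit, and was −0.20 to 0.072 with single libraries left out. Without litter 100 it was called lower in DC (adjusted p = 0.0122). Hmox1 (0.038) turned to −0.051 with limma voom, −0.051 under upper-quartile scaling, −0.010 with a minimum count of 30, −0.050 without libraries under 1000000 counts, −0.11 without litter 100, −0.037 without litter 108 and −0.37 within litter 93, and was −0.22 to 0.18 with single libraries left out. Pecam1 (0.11) turned to −0.41 without litter 108, −0.056 within litter 93 and −0.75 within litter 100, and was −0.17 to 0.46 with single libraries left out. Within litter 108 it was 1.10 and called higher in DC (adjusted p = 0.0425). Log2 values are DC minus AM. Depth limits the genes at or near 0 in a group, and the 12 libraries limit the differences that can be called.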
